A study of Mus musculus with 6 samples.

Results

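The genes described here are the mouse cytochrome P450 genes, symbols beginning with Cyp and a number, that remain after the Cyp4a, Cyp2a and Cyp2d genes and Cyp24a1, Cyp27b1, Cyp2r1 and Cyp51 are set aside. This left 75 of the 21367 genes in the deposited table, out of 101 genes with such a symbol. They were compared between 3 kidneys of Ptpn6+/mev mice and 3 kidneys of wild-type mice, littermates that were all 7 weeks old and on a C57BL/6 background. Every mouse had lost its right kidney and had gone through 34 min of ischemia of the left kidney followed by 24 h of reperfusion (ischemia-reperfusion injury, IRI), so no uninjured kidney enters any value below. The mev allele is a splice-site mutation of Ptpn6, the gene of the phosphatase SHP-1. It was carried in a single copy in every cell of the body, since mice with 2 copies rarely come through surgery, and the labels call this group an SHP1 knockdown. Whole kidney was sequenced, so fewer cells of a type and less RNA per cell cannot be told apart.

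Cytochrome P450 enzymes are heme proteins that insert an oxygen atom into lipids, steroids, vitamins and foreign compounds. Most sit in the endoplasmic reticulum and take electrons from P450 oxidoreductase, and a smaller mitochondrial group takes them from ferredoxin. In the kidney they are known above all in the proximal tubule, where CYP2J and CYP2C enzymes make epoxides of arachidonic acid and CYP4 enzymes hydroxylate fatty acids at or near the end of the chain. The liver holds the largest amounts of the drug-metabolizing CYP2C and CYP3A enzymes, and the adrenal and gonads those of steroid hormone synthesis.

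Total counts ran from 10271590 to 12361745 per library. Ptpn6 itself had 11.9, 14.7 and 13.6 FPKM (fragments scaled to transcript length and library size) in the Ptpn6+/mev kidneys and 17.5, 10.9 and 15.4 FPKM in the wild-type kidneys. These overlap (log2 fold change -0.19 ± 0.17, SE; edgeR FDR 0.715), and a total over the gene does not read the splice change, so it does not check the labels. Wild-type replicate 2 stood apart from the rest: it was the lowest of the 6 libraries for 42.7% of the 13036 genes tested, its 5 endothelial markers summed to 48.0 FPKM against 114 to 123 FPKM elsewhere, and Kap, an androgen-regulated proximal tubule gene, had 10201 FPKM there against 1520 to 2882 FPKM. Y-linked genes were read in every library of both groups.

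Of the 75 genes, 33 had no count in any library, 20 had counts but stayed below the filter on low counts, with at most 14 counts in a library, and 22 were tested. A gene with 0 counts in all libraries may still reach 0.0458 CPM (counts scaled to library size), the rate that 3 counts over the 6 libraries would give, an allowance for counting error only. No member had a fractional count, whereas 1744 genes of the table did. How reads shared by near-identical copies, such as Cyp3a41a and Cyp3a41b, were counted is not given, so a level of 0 in such pairs is uncertain.

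Among the 75 genes, 3 held most of the summed FPKM. Cyp4b1, a fatty acid and xenobiotic hydroxylase of the CYP4 family, Cyp2j5, a kidney epoxygenase, and Cyp2e1, which oxidizes ethanol, ketones and fatty acids, held 78.2 to 85.0% of the summed FPKM of all 75 genes in each library, and Cyp4b1 alone held 51.1 to 57.4%. Cyp4b1 (chr4:115624725-115647723, GRCm38, minus strand) averaged 377 FPKM over the 6 libraries, Cyp2j5 (chr4:96628773-96664154) 122 FPKM and Cyp2e1 (chr7:140763739-140774987) 67.6 FPKM. Next came Cyp2j13 at 25.9 FPKM, and 8 genes in all averaged at least 10 FPKM. Cyp4f13, Cyp2s1, Cyp20a1 and Cyp2j6 followed between 11.4 and 13.4 FPKM, then Cyp2j11 at 9.65, Cyp4f16 at 8.91 and Cyp27a1 at 8.25 FPKM. The order is firm only at the top. The ranges over the 6 libraries did not overlap for 3 of the 21 neighbouring pairs in the order, Cyp4b1 above Cyp2j5, Cyp2e1 above Cyp2j13 and Cyp2j13 above Cyp4f13, and the other 18 pairs overlapped.

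**Figure D1:**
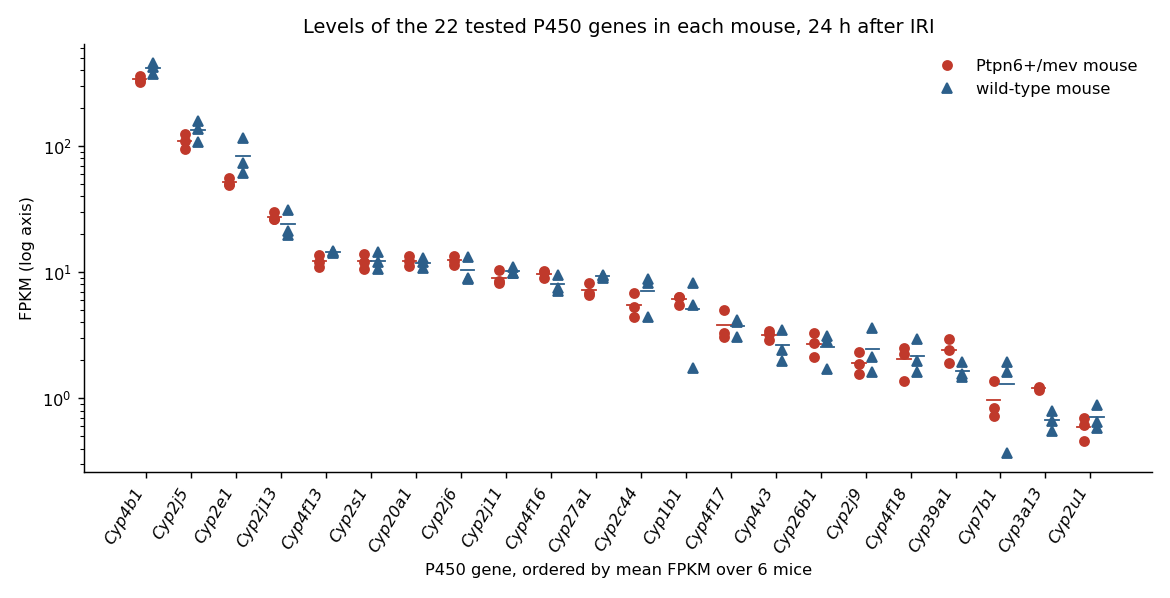
FPKM of the 22 tested P450 genes in each library, on a log axis, in the order of their mean level, with a point for each of the 3 Ptpn6+/mev and the 3 wild-type kidneys and a short line at each group's mean. Cyp4b1 lies at 324 to 452 FPKM, above every other gene in every library, and from Cyp4f13 down neighbouring genes overlap.

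The sequence just before the start is shown for a few of these genes, picked as examples. They are Cyp4b1 and Cyp2e1, among the most abundant, and the moderately expressed Cyp2s1 and Cyp20a1. Windows from RefSeq on GRCm38.p6 were found by symbol for 61 of the 75 genes, each from 250 bases before to 50 after a start. The letters TATAA, the core of a TATA box, were searched on both strands, and capitals mark them in the last 60 bases before the RefSeq start of Cyp4b1 (chr4:115647722-115647781, minus strand) and Cyp2e1 (chr7:140763759-140763818, plus strand, where both strands match in overlap). Cyp2s1 (chr7:25816526-25816585, minus strand) and Cyp20a1 (chr1:60343240-60343299, plus strand) had none.
Cyp4b1: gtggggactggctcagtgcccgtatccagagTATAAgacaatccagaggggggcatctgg
Cyp2e1: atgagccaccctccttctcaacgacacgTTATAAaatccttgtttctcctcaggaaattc
Cyp2s1: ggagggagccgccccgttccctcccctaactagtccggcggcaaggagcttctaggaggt
Cyp20a1: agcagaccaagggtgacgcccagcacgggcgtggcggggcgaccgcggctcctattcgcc
Cyp2j5, the second most abundant gene, also held TATAA in its window, and so did Cyp26b1, at a mean of 2.64 FPKM. These 4 were the only ones among the 17 tested genes with a window, against 8 of 16 genes below the filter and 20 of 28 genes with no count. Over all 32851 promoter windows of the RefSeq table the share was 24.9%, and the tested genes stood near it. The windows of the genes with no count had a median GC content of 44.8%, those of the tested genes 54.0% and all windows 52.7%. A match in letters is a description of the window and not a mapped site.

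Several P450 families were close to silent. Of the 15 CYP2C genes, which include the main arachidonic acid epoxygenases, all on chromosome 19, 13 had no count, Cyp2c69 stayed below the filter and Cyp2c44 alone was tested. Cyp2c44, the known kidney epoxygenase of the family, lies at 44005022 to 44029208, 3.82 Mb beyond the other 14 genes. Of the 9 CYP3A genes on chromosome 5, 7 had no count, Cyp3a11 stayed below the filter and Cyp3a13 alone was tested. Cyp3a13, a steroid and drug hydroxylase, lies at 137892932 to 137921619, 7.42 Mb before the other 8. The pattern was the same in both families: the gene set apart from the cluster was the one read in the kidney.

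**Figure D2:**
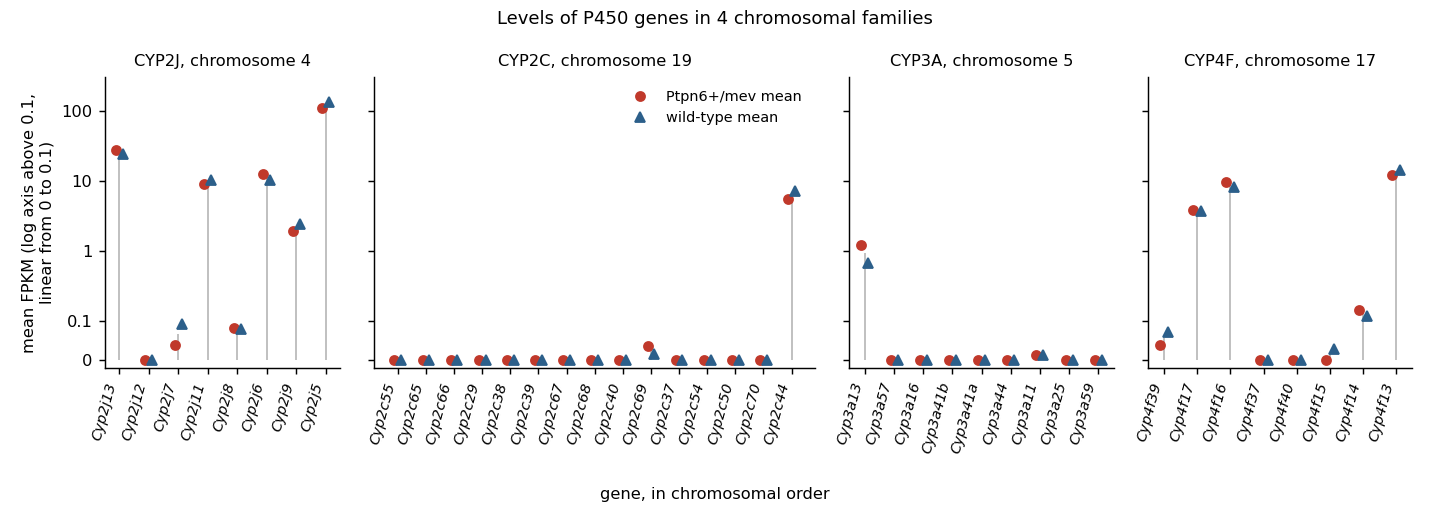
Mean FPKM of the 3 Ptpn6+/mev and of the 3 wild-type kidneys for the CYP2J, CYP2C, CYP3A and CYP4F genes in their order along the chromosome, on an axis that is log above 0.1 FPKM and linear below it. In the CYP2C and CYP3A rows only the gene at the end of the row, Cyp2c44 at means of 5.53 and 7.13 FPKM and Cyp3a13 at 1.20 and 0.67 FPKM, passed the filter, whereas tested genes lie scattered through the CYP2J and CYP4F rows.

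CYP3A promoters are shown next, the tested member beside members read at or near 0. Capitals mark TATAA and CAAAGTCCA, the letters of a binding motif of HNF4A, a nuclear receptor of liver, gut and proximal tubule, in the 130 bases before the RefSeq starts of Cyp3a13 (chr5:137921620-137921749), Cyp3a11 (chr5:145879855-145879984) and Cyp3a41a (chr5:145720137-145720266), all on the minus strand of GRCm38.p6.
Cyp3a13: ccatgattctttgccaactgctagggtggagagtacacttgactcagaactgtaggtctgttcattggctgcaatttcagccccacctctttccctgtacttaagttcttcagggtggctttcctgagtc
Cyp3a11: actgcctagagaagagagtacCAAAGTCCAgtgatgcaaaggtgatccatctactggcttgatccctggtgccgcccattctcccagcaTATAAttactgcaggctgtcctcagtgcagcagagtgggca
Cyp3a41a: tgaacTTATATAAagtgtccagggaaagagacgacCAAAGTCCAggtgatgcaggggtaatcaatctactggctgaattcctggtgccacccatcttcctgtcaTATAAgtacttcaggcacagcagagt
TATAA was found in the windows of 8 of the 9 CYP3A genes, all but Cyp3a13. CAAAGTCCA was found in 4 of the 9 CYP3A genes, in 6 of the 13 CYP2C genes with a window and in Cyp8b1, 11 of 61 genes (18.0%) in all, beside 0.475% of all promoter windows. None of the 17 tested genes with a window held it, 3 of the 16 below the filter did and so did 8 of the 28 with no count. These motifs were chosen after several had been tried on the same windows, and a gene without them may hold the same site in other letters.

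CYP2J genes, whose enzymes form epoxides of arachidonic and linoleic acid, lie within chr4:96027534-96664154, and 5 of the 8 were tested. CYP4F genes, fatty acid and leukotriene hydroxylases, hold 8 genes within chr17:32452723-32947402, of which Cyp4f13, Cyp4f16 and Cyp4f17 were tested, and Cyp4f18 on chromosome 8. The 5 CYP2B genes gave no tested member. Neither did the 6 genes of steroid hormone synthesis, of which 4 had no count and 2 a few counts. Of adrenal markers outside the P450 genes, Th and Pnmt had no count, whereas Star and Akr1b7 were tested. Star averaged 2.87 FPKM in Ptpn6+/mev and 2.58 FPKM in wild-type kidneys, and Akr1b7 4.14 and 4.85 FPKM. The 8 markers together summed to 6.15 to 7.75 FPKM in Ptpn6+/mev and 6.47 to 8.45 FPKM in wild-type kidneys, most of it Star and Akr1b7. In the deposited KEGG annotation, 10 of the 30 members annotated to arachidonic acid metabolism were tested, near the share over all members, 22 of 75. Under steroid hormone biosynthesis it was 5 of 37 and under retinol metabolism 4 of 31.

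In the comparison of Ptpn6+/mev with wild-type kidneys, none of the 22 tested genes passed an FDR of 0.05 with edgeR's quasi-likelihood test, adjusted over 13036 genes, of which 0.138% (18 genes) did. At an unadjusted p under 0.05 stood 5 of the 22, or 22.7%, beside 12.2% of all genes. Cyp4b1, Cyp2e1, Cyp4f13 and Cyp27a1 were the 4 on the lower side in Ptpn6+/mev kidneys, where the share of all genes was 6.71%, and Cyp3a13 was the 1 on the higher side, where it was 5.53%. For the same 5 genes the FPKM of both groups did not overlap, beside 20.4% of all genes (6.38% with the Ptpn6+/mev kidneys lower and 14.0% with them higher). The exact test of edgeR and DESeq2 also called none of the 22 at an FDR of 0.05, beside 2.99% and 2.97% of all genes, and put 4 and 5 of them at an unadjusted p under 0.05, beside 11.3% of all genes for either tool.

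The log2 fold changes of the 22 genes (Ptpn6+/mev over wild-type) ran from -0.78 to 0.78 with a median of -0.12, and 15 of them lay below 0, or 68.2%. Over all tested genes the median was -0.0024 and the share below 0 was 50.5%. The 95% interval reached a median of 0.56 to either side of the estimate, 0.25 for the narrowest and 1.33 for the widest. It lay within a 2-fold change in both directions, log2 of -1 to 1, for 15 of the 22 genes, and for the other 7 a larger difference was within the interval.

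**Figure D3:**
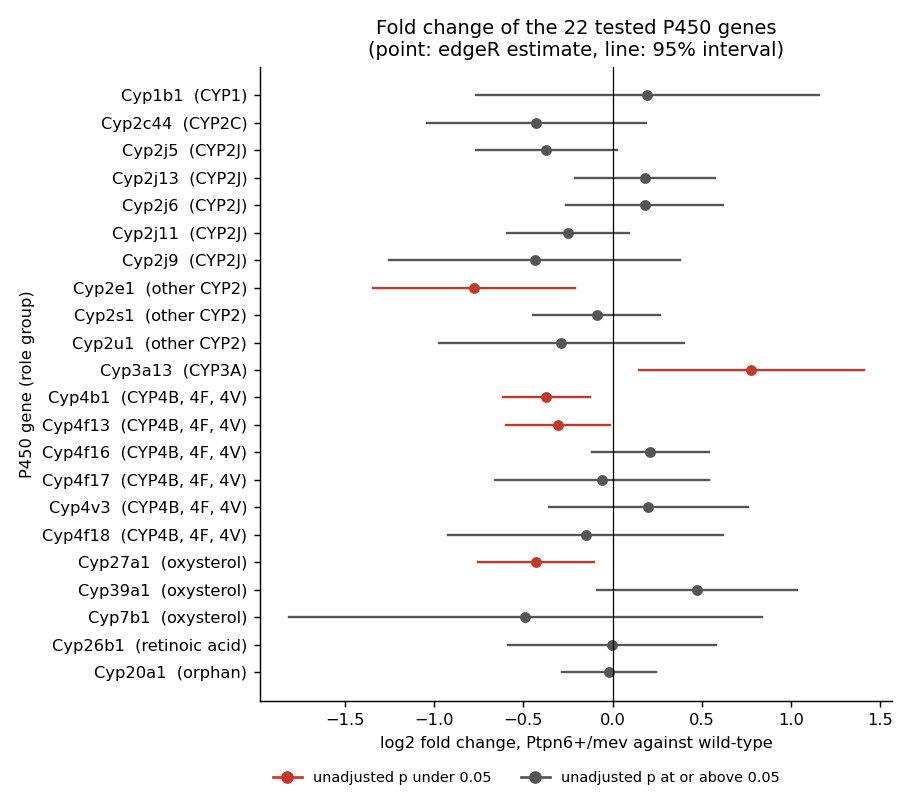
Log2 fold change (Ptpn6+/mev over wild-type) of each tested P450 gene with its 95% interval from the edgeR fit, with role groups beside the symbols. All but 5 intervals cross 0, and the 5 that do not are Cyp4b1, Cyp2e1, Cyp4f13 and Cyp27a1 below 0 and Cyp3a13 above it.

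Among the CYP4 genes outside Cyp4a, 6 of 12 were tested. Of these, 2 had an unadjusted p under 0.05, both lower, beside 12.2% of all genes. Cyp4b1 was read at 335, 324 and 357 FPKM in the Ptpn6+/mev kidneys and at 376, 452 and 420 FPKM in the wild-type kidneys. All 3 Ptpn6+/mev values lay under the lowest wild-type value, with means of 339 ± 16.6 and 416 ± 38.3 FPKM (SD, n = 3 each), a log2 fold change of -0.37 ± 0.11 (SE) and an edgeR FDR of 0.209. Cyp4f13, at chr17:32924688-32947402, was read at 11.1, 12.1 and 13.6 FPKM against 14.5, 14.7 and 14.3 FPKM. Its groups also lay apart, by a log2 fold change of -0.31 ± 0.13 (SE) at an edgeR FDR of 0.376, and its unadjusted p was at or above 0.05 in 11 of 15 alternatives. Cyp4f16, another gene of the cluster, had 9.01, 10.01 and 10.3 FPKM against 7.5, 7.08 and 9.58 FPKM, which overlap. Its log2 fold change was 0.21, and ran from 0.16 without wild-type replicate 1 to 0.33 without wild-type replicate 3. The other 3 tested genes, Cyp4f17, Cyp4f18 and Cyp4v3, a fatty acid hydroxylase of lysosomes and endoplasmic reticulum, had log2 fold changes from -0.15 to 0.20. Cyp4f18 shares 181 of its 1855 exonic bases with Zfp961 on the opposite strand, and the library kit marks no strand, so reads over that stretch cannot be assigned. Cyp2s1 and Cyp2u1 likewise share 260 and 548 exonic bases with non-coding or unnamed transcripts on the opposite strand. Cyp4v3 shares 313 with such a transcript on its own strand, where strand information would not separate them.

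The CYP2J family was mixed. Cyp2j5, the most abundant epoxygenase of this set, was read at 95.7, 124 and 109 FPKM in the Ptpn6+/mev kidneys and at 136, 158 and 109 FPKM in the wild-type kidneys. Its groups overlap through wild-type replicate 3 (log2 fold change -0.37 ± 0.17, SE; edgeR FDR 0.437). The log2 fold change was -0.19 without wild-type replicate 2 and -0.52 without wild-type replicate 3. Cyp2j13 was read at 26.6, 26.3 and 30.0 FPKM against 31.2, 21.3 and 19.8 FPKM, and Cyp2j6 at 13.5, 12.2 and 11.5 FPKM against 9.02, 13.2 and 8.81 FPKM. Both overlap between the groups and had a log2 fold change of 0.18, which single libraries moved: Cyp2j13 ran from 0.036 without wild-type replicate 3 to 0.39 without wild-type replicate 1, and Cyp2j6 from 0.0535 without wild-type replicate 3 to 0.45 without wild-type replicate 2 (edgeR FDR 0.0802). Cyp2j11 was read at 8.55, 10.3 and 8.26 FPKM against 9.88, 10.9 and 9.93 FPKM, for a log2 fold change of -0.25 (-0.16 without wild-type replicate 2), and its groups overlap through Ptpn6+/mev replicate 2. Cyp2j9, the lowest of the 5, had a log2 fold change of -0.44 with an interval from -1.26 to 0.38.

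Cyp2c44 was read at 5.27, 6.88 and 4.45 FPKM in the Ptpn6+/mev kidneys and at 8.15, 4.45 and 8.80 FPKM in the wild-type kidneys. Wild-type replicate 2 was as low as the lowest Ptpn6+/mev kidney and the other 2 wild-type kidneys were higher than all 3, so the log2 fold change of -0.43 ± 0.27 (SE) had an edgeR FDR of 0.591. With 1 library left out it ran from -0.64 without wild-type replicate 2 to -0.27 without wild-type replicate 3.

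Of the 3 most abundant genes, Cyp2e1 had the fold change farthest from 0. It was read at 50.1, 48.9 and 55.6 FPKM in the Ptpn6+/mev kidneys and at 61.7, 116 and 72.9 FPKM in the wild-type kidneys. All 3 Ptpn6+/mev kidneys lay below all 3 wild-type kidneys (51.5 ± 3.54 against 83.6 ± 28.9 FPKM, SD, n = 3 each), and the log2 fold change was -0.78 ± 0.25 (SE) at an edgeR FDR of 0.248. The size rests in part on wild-type replicate 2, the high value: without it the log2 fold change was -0.40 (edgeR FDR 0.0841). Cyp2s1, an enzyme of epithelia that acts on retinoids and lipid hydroperoxides, was read at 12.1, 13.9 and 10.7 FPKM against 14.4, 12.0 and 10.6 FPKM. The groups overlap over nearly their whole range, and the log2 fold change was -0.09. Cyp2u1, a fatty acid hydroxylase at under 1 FPKM in every library, had a log2 fold change of -0.29.

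Among the genes of bile acid and oxysterol metabolism, Cyp27a1, the mitochondrial sterol 27-hydroxylase (chr1:74713574-74737892), was read at 8.15, 6.66 and 6.90 FPKM in the Ptpn6+/mev kidneys and at 8.94, 9.36 and 9.50 FPKM in the wild-type kidneys. The groups lay apart (7.24 ± 0.800 against 9.27 ± 0.291 FPKM, SD, n = 3 each), with a log2 fold change of -0.43 ± 0.14 (SE) and an edgeR FDR of 0.274. Cyp39a1, an oxysterol 7-alpha-hydroxylase, had a log2 fold change of 0.47 (edgeR FDR 0.490) and Cyp7b1, another oxysterol hydroxylase, one of -0.49 with an interval from -1.82 to 0.84. So the 3 tested genes of this group did not share a direction. Cyp46a1, the cholesterol 24-hydroxylase of brain, had 3, 2 and 3 counts against 4, 6 and 3 counts.

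Cyp3a13 was the tested gene with the largest value above 0. It was counted 37, 38 and 37 times in the Ptpn6+/mev kidneys and 21, 26 and 20 times in the wild-type kidneys, or 1.21, 1.24 and 1.16 FPKM against 0.66, 0.80 and 0.55 FPKM. The groups lay apart at this low level, with a log2 fold change of 0.78 ± 0.27 (SE) and an edgeR FDR of 0.304. Without 1 library at a time the log2 fold change ran from 0.63 to 0.97.

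The CYP1 genes are the classical targets of the aryl hydrocarbon receptor, Ahr. Cyp1b1, which hydroxylates estrogens and polycyclic compounds and is known from stromal and vessel cells, was read at 6.32, 6.42 and 5.53 FPKM in the Ptpn6+/mev kidneys and at 5.50, 1.75 and 8.15 FPKM in the wild-type kidneys. The wild-type kidneys held both the lowest and the highest value, the lowest being replicate 2, where the endothelial markers were also lowest; the part of that in the result was not tested. Its log2 fold change was 0.19 ± 0.42 (SE; edgeR FDR 0.910) and turned to -0.19 without that library. Cyp1a1 was below the filter, with 7, 14 and 11 counts in the Ptpn6+/mev kidneys and 5, 6 and 6 counts in the wild-type kidneys. These groups do not overlap, yet in the fit without a filter the log2 fold change of 0.95 ± 0.50 (SE) had an edgeR FDR of 0.577. The Ahr transcript was read at 1.49, 1.89 and 1.99 FPKM against 1.95, 1.19 and 2.35 FPKM, which overlap. The 60 bases before the Cyp1a1 RefSeq start (chr9:57697553-57697612, plus strand, GRCm38.p6) are shown because the gene is the textbook Ahr target, with capitals for GCGTG, the core letters bound by the receptor, and for TATAA.
Cyp1a1: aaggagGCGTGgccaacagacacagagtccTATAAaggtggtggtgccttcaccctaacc
GCGTG is short and was found in 32.4% of all promoter windows and in 14 of the 61 P450 genes with a window.

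Cyp26b1, which clears retinoic acid, was read at 2.73, 3.29 and 2.12 FPKM in the Ptpn6+/mev kidneys and at 3.14, 1.71 and 2.86 FPKM in the wild-type kidneys. The groups overlap, with a log2 fold change of -0.0051 ± 0.25 (SE) whose sign changed between settings. Its relative Cyp26a1 had 4, 0 and 0 counts against 4, 7 and 2. Cyp20a1, an orphan P450 with no settled substrate, varied little: it was read at 11.3, 13.3 and 12.3 FPKM against 12.0, 10.8 and 12.9 FPKM, and its interval ran from -0.28 to 0.25 on the log2 scale. Among the other genes below the filter, Cyp4f14, a leukotriene hydroxylase, had 5, 1 and 4 counts against 5, 2 and 2. Cyp2b10, the usual target of the receptor CAR, had 0, 0 and 1 counts against 0, 5 and 1. Cyp2f2, an enzyme of airway cells, had 7, 7 and 2 counts against 3, 8 and 5. None of these 4 separated the groups.

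Summed over all 75 genes, the FPKM were 614, 635 and 654 in the Ptpn6+/mev kidneys and 713, 854 and 731 in the wild-type kidneys. All 3 Ptpn6+/mev kidneys were lower, and since Cyp4b1, Cyp2j5 and Cyp2e1 make up most of each sum, the sum follows these genes. Wild-type replicate 2 was the highest of the 6 libraries for 8 of the 22 genes, or 36.4%, beside 17.3% of all genes, and the lowest for 4, or 18.2%, beside 42.7%. Without it, none of the 22 passed an FDR of 0.05 in the edgeR fit, beside 1.77% of all genes. At an unadjusted p under 0.05 stood 8 of them, 4 lower (Cyp4b1, Cyp2e1, Cyp27a1 and Cyp2c44) and 4 higher (Cyp3a13, Cyp39a1, Cyp2j6 and Cyp4v3), beside 17.3% of all genes.

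**Figure D4:**
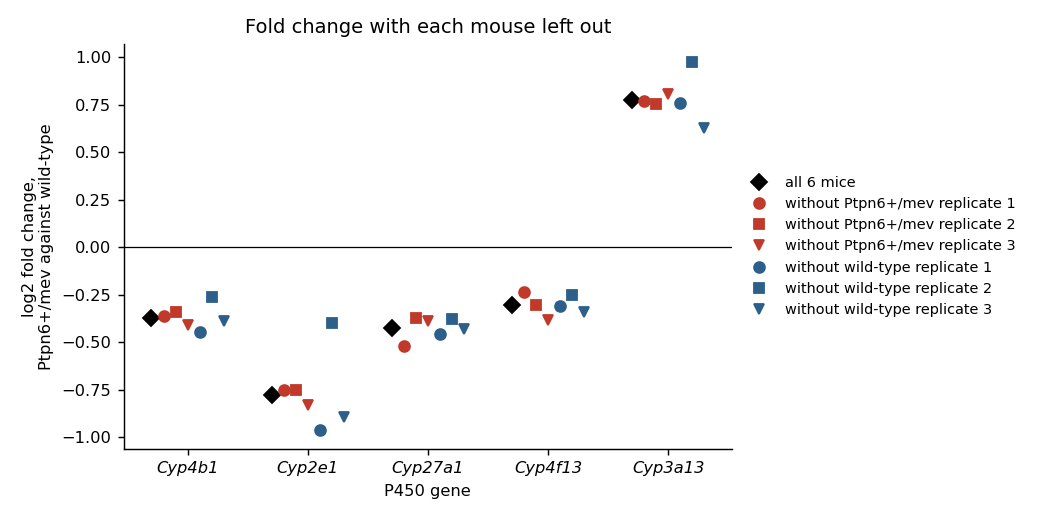
Log2 fold change of the 5 P450 genes with an unadjusted p under 0.05, with all libraries and with each library left out in turn. The direction holds in every case; Cyp2e1 runs from -0.97 to -0.40, the smallest size being without wild-type replicate 2, and Cyp4b1 runs from -0.44 to -0.26.

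The P450 genes set aside at the start gave larger values in the same fit. Of the Cyp4a genes, the fatty acid omega-hydroxylases, 4 of the 5 tested had an unadjusted p under 0.05, all lower, with a median log2 fold change of -1.37. Of the Cyp2a and Cyp2d genes it was 5 of 6, all lower, with a median of -1.28, and 2 of those passed an FDR of 0.05. Over all tested genes, 6.71% had an unadjusted p under 0.05 on the lower side and 0.138% passed an FDR of 0.05. Fractional counts were present in 4 of the tested Cyp4a genes and 2 of the tested Cyp2a and Cyp2d genes. The difference between these families and the 22 genes was not tested.

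Electron donors and partners of the P450 enzymes were read in the same fit, and none passed an FDR of 0.05 in it. Of the 10 electron donor genes tested, 2 had an unadjusted p under 0.05, both lower, beside 12.2% of all genes. Por, the oxidoreductase that serves P450 enzymes of the endoplasmic reticulum, was read at 117, 122 and 117 FPKM in the Ptpn6+/mev kidneys. In the wild-type kidneys it was read at 155, 134 and 160 FPKM. Its groups lay apart, with a log2 fold change of -0.41 ± 0.075 (SE) and an edgeR quasi-likelihood FDR of 0.0852. The FDR was 0.0324 without wild-type replicate 2, 0.0173 by the exact test and 1.9e-04 by DESeq2, and the exact test and DESeq2 call more genes in all. It was 0.196 with limma on log2(FPKM + 0.1), 0.190 on log2(FPKM + 1) and 0.261 with a replicate block. Without Ptpn6+/mev replicate 3 it was 0.438. Cyb5a, cytochrome b5, was read at 451, 416 and 411 FPKM against 509, 528 and 467 FPKM, which lie apart too (log2 fold change -0.30; edgeR FDR 0.228). The mitochondrial donors Fdx1 and Fdxr had log2 fold changes of 0.10 and -0.39. Of the 4 tested epoxide hydrolases and P450s under other names, 1 had an unadjusted p under 0.05: Ephx2, which hydrolyses the epoxides that CYP2J and CYP2C enzymes form. It was read at 77.0, 80.3 and 61.8 FPKM against 103, 208 and 99.0 FPKM, lower in all 3 Ptpn6+/mev kidneys and highest by far in wild-type replicate 2 (log2 fold change -0.99; edgeR FDR 0.239, DESeq2 0.0262). Without that library its log2 fold change was -0.50 (edgeR FDR 0.0654).

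Of 14 tested receptors and factors known to regulate P450 genes, 2 had an unadjusted p under 0.05, both lower, beside 12.2% of all genes. None of the 14 passed an FDR of 0.05 in the same fit. Nr1i2, the pregnane X receptor, which induces CYP3A and CYP2C genes, was read at 3.61, 3.01 and 2.68 FPKM in the Ptpn6+/mev kidneys and at 5.50, 5.90 and 5.81 FPKM in the wild-type kidneys. The groups lay well apart, with a log2 fold change of -0.96 ± 0.17 (SE) and an edgeR quasi-likelihood FDR of 0.0852. It passed without wild-type replicate 2 (edgeR FDR 0.0409), by the exact test (FDR 7.2e-04) and by DESeq2 (FDR 9.98e-04). With limma it did not pass, at an FDR of 0.108 on log2(FPKM + 0.1) and 0.0981 on log2(FPKM + 1). Nor did it with a replicate block, at an edgeR FDR of 0.219. Hnf4a was read at 164, 142 and 126 FPKM against 203, 158 and 167 FPKM, where 1 Ptpn6+/mev kidney overlaps the wild-type range (log2 fold change -0.36; edgeR FDR 0.308). Nr1i3, the receptor CAR, had no count in the Ptpn6+/mev kidneys and 4.01, 1 and 3.62 estimated counts in the wild-type kidneys, too few to test.

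**Figure D5:**
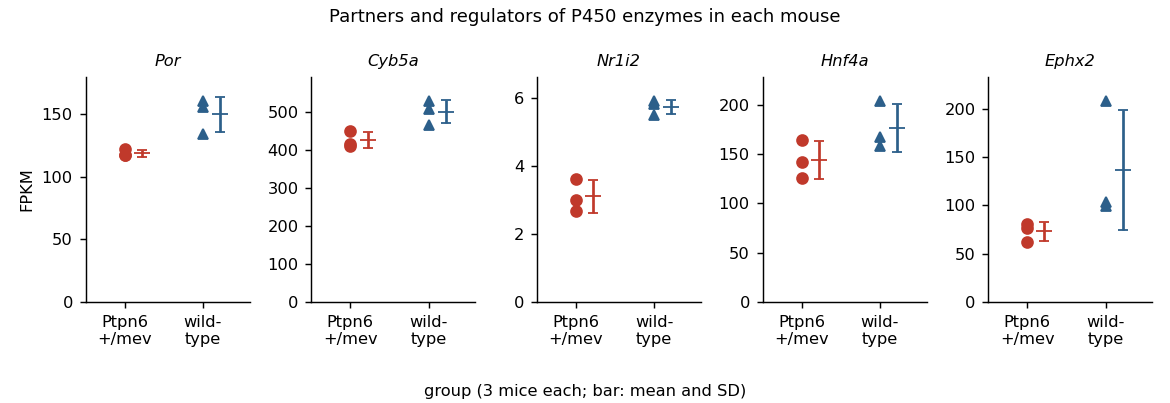
FPKM per library, by group, of 5 electron donor, hydrolase and regulator genes with an unadjusted p under 0.05, with 1 point per kidney and bars for the mean and SD. All 3 Ptpn6+/mev kidneys lie below all 3 wild-type kidneys for Por, Cyb5a, Ephx2 and Nr1i2, whereas Hnf4a overlaps.

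Marker genes of kidney and other cell types were read in the same fit. Over all tested genes, 6.71% had an unadjusted p under 0.05 on the lower side and 5.53% on the higher side. Of 12 proximal tubule markers, Hnf4a among them, 6 had an unadjusted p under 0.05 on the lower side and none on the higher side, with a median log2 fold change of -0.44. Their summed level ran from 2987 to 3832 FPKM in Ptpn6+/mev and from 2637 to 11183 FPKM in wild-type kidneys, and most of it was Kap. Without Kap, left out after its values were seen, the other 11 summed to 797 to 950 FPKM in Ptpn6+/mev and 983 to 1214 FPKM in wild-type kidneys, every Ptpn6+/mev kidney being lower. Of 8 tubular injury markers, 4 had one on the higher side and none on the lower side, and their sum ran from 6057 to 7452 FPKM against 5528 to 6085 FPKM. Of the 5 tested hepatocyte markers, 4 were on the lower side, and Ttr was not, with a log2 fold change of 0.31 (edgeR FDR 0.640). The sum of the list, most of it Fgb and Ttr, ran from 68.2 to 75.2 FPKM against 85.8 to 109 FPKM. Cps1 was at 0. Macrophage, neutrophil and endothelial lists held no gene at an unadjusted p under 0.05, and the 8 distal nephron markers held 1 in each direction. None of the genes in these lists passed an FDR of 0.05. The part of tubule and injury markers in the values of Cyp4b1, Cyp2e1, Cyp4f13, Cyp27a1 and Cyp3a13 was not tested.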

How the data were processed

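Poly(A) RNA of 6 kidneys was sequenced. The authors aligned reads with TopHat to GRCm38.p5 with Ensembl genes and used Cufflinks; the submitters' processing notes also list Bowtie2 and RSEM, and the tool behind the counts is not given in the sources used here. They deposited estimated counts (expected counts) and FPKM for each library. The p-values measure the spread between these mice, 1 library each.

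Counts were rounded, scaled by TMM and filtered with filterByExpr, and the quasi-likelihood F-test of edgeR 4.0.16 (R 4.3.3) was adjusted over 13036 genes by Benjamini-Hochberg. Alternatives were DESeq2 1.42.0, the exact test of edgeR, limma 3.58.1 on log2(FPKM + 1) and log2(FPKM + 0.1), other size factors, other filters, a replicate block and each library left out. The code was tested on simulated data. Named genes were members with an unadjusted p under 0.05, the 10 most abundant, the top gene of each role, low genes with 5 or more counts in a library, and pathway genes with an unadjusted p under 0.05, with Por, Ahr, Nr1i2 and Nr1i3. Others appear by range, and those beyond the rule were named after their values were seen. Members and lists were chosen with earlier results of these data known. Gene positions are from GENCODE on GRCm38, promoters from RefSeq on GRCm38.p6. A gene of the regulator list is not reported here.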

Additional observations from a re-analysis of the deposited data

How the results depend on the processing

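None of the 22 P450 genes passed an FDR of 0.05 in any of the 15 alternatives, and the lowest FDR of a member in any of them was 0.0569, for Cyp2e1 with DESeq2. Over all genes, 18 passed in the main analysis, 387 with DESeq2, 390 with edgeR's exact test, 52 without a filter and 1 with a replicate block, and leaving out 1 library gave 1 (Ptpn6+/mev replicate 3) to 231 (wild-type replicate 2). The count of members at an unadjusted p under 0.05, 5 in the main analysis, ran from 3 to 8 when 1 library was left out: 3 without Ptpn6+/mev replicate 1 or 2 (8.68% and 10.4% of all genes) and 8 without wild-type replicate 2 (17.3%). The median log2 fold change of the 22 tested members, -0.12, was -0.21 to -0.10 with 1 library left out, the lowest without Ptpn6+/mev replicate 2. Without a filter it was -0.20, but over the 42 members with a count, many of them with only a few. With limma on log2(FPKM + 1) the median of the 22 was -0.0325, but the median of all genes also shifted by 0.0648 there. The members minus all genes came to -0.095 against -0.12 in the main analysis. Genes near 0 changed sign. Cyp1b1 ran from -0.19 without wild-type replicate 2 to 0.68 without wild-type replicate 3. Cyp20a1 was 0.0485 with limma on log2(FPKM + 0.1), 0.0451 on log2(FPKM + 1) and -0.0824 to 0.0389 with a library left out. In the limma fits the median of all genes shifted by 0.0787 and 0.0648, and relative to it Cyp20a1 stayed below 0, at -0.0278 and -0.0173. Cyp26b1 was 0.0984 and 0.0684 with these (0.022 and 0.006 relative to the median of all genes), 0.0029 with a replicate block, 0.0022 with upper quartile scaling and -0.20 to 0.16 with a library left out, and Cyp2s1 was -0.21 to 0.0283. Por and Nr1i2 passed an FDR of 0.05 in 3 alternatives each, the exact test, DESeq2 and the fit without wild-type replicate 2. The cause of the other changes was not tested.

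The labels give no pairing by replicate number, and same-numbered libraries deviated from their group means with correlations of -0.18 to -0.13. With so few libraries per group, these correlations cannot exclude a litter or batch shared by same-numbered mice. With the replicate block no member passed and 5 had an unadjusted p under 0.05, beside 9.21% of all genes, with Cyp2j5 in place of Cyp4f13. Of the 5 in the main analysis, Cyp4b1 and Cyp2e1 kept an unadjusted p under 0.05 in all 15 alternatives, Cyp27a1 in 13, Cyp3a13 in 11 and Cyp4f13 in 4. Depth limits the 20 members under the filter, where a few counts set each value.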
